A study of Mus musculus with 8 samples.

Results

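The glycolysis, gluconeogenesis and glycogen isozymes were 42 genes, taken by name from the 21938 protein-coding genes of the GENCODE annotation of the mouse genome (mm10). They encode the enzymes of glucose breakdown and synthesis, the regulators that make and remove fructose 2,6-bisphosphate, glycogen synthases and phosphorylases, and the glucose transporters of the Slc2a family. By textbook expression, 9 were liver isozymes (Pfkl, Fbp1, Pklr, Pck1, Pcx, G6pc, Gys2, Pygl and Slc2a2), 25 were isozymes of other tissues such as muscle, brain, testis or blood cells, and 8 were broadly expressed enzymes that the liver shares with most tissues. All 42 were described by the position of H3K27-me3 regions around them in the liver, and by how these positions differed between mice with and without Cre.

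H3K27-me3 ChIP-seq had been performed on whole minced livers of C57BL/6 males with floxed Jmjd3 alleles, given AAV-TBG-Cre (AAV-Cre) or AAV-GFP at 8 weeks of age and fasted for 16 h after a further 12 weeks. Both groups were floxed, and the TBG promoter restricts Cre to hepatocytes, so endothelial, Kupffer and other cells of the liver, which are in the same chromatin, are not its target. The 8 libraries were 2 of H3K27-me3 and 2 of input per virus, and the deposited data are 2 lists of enriched regions, 1 per virus, each made from both mice. There is therefore no value per mouse, no replicate error and no test between the viruses, and the lists hold no measure of JMJD3 itself. In whole liver, a mark in a minority of cells and a weak mark in all cells cannot be told apart.

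H3K27-me3 is the trimethylation of lysine 27 of histone H3. It is written by Polycomb repressive complex 2, mostly over CG-rich promoters of genes that a cell type does not use, and it is removed by the demethylases JMJD3 and UTX. Most steps of glucose metabolism are served by several genes: hepatocytes use isozymes that let them release glucose and store glycogen for other organs, such as the L-type pyruvate kinase Pklr, the phosphorylase Pygl, the low-affinity transporter Slc2a2 and glucose-6-phosphatase, whereas muscle, brain and growing cells use other forms, such as the M-type pyruvate kinase Pkm, hexokinase 2 and the transporter Slc2a4.

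The lists differed in size and in the shape of their regions. AAV-Cre had 59267 regions with a median width of 753 bp that covered 73.7 Mb, and AAV-GFP had 34586 regions with a median width of 231 bp that covered 14.9 Mb. The q-value is the p-value of ChIP over input adjusted by the peak caller for multiple testing. A q-value of 0.05 or lower was reached by 88.6% of the AAV-Cre regions and 46.8% of the AAV-GFP regions. Among the AAV-GFP regions 86.4% overlapped an AAV-Cre region, and 24.2% of the AAV-Cre regions overlapped an AAV-GFP region. The sequencing depth is unknown, and counts at equal list length, at a minimum width and at stricter q-values are given beside the comparison of the viruses. Of 8 hepatocyte genes (Alb, Ttr, Apoa1, Apob, Fgb, Cps1, Tat and Hnf4a), 0 had a region within 15 kb of a start site in either list. Most protein-coding genes had none there either, since 41.5% had one in AAV-Cre and 27.9% in AAV-GFP. These genes therefore cannot check the labelled tissue.

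The counts differed by the tissue in which an isozyme is used. None of the 9 liver isozymes had a region within 15 kb of a start site or over the gene body in either list, whereas 20 of the 25 isozymes of other tissues (80%) had a region within 15 kb in AAV-Cre and 12 (48%) in AAV-GFP. Of the 8 broadly expressed enzymes, only Pck2, the mitochondrial phosphoenolpyruvate carboxykinase, had a region within 15 kb, and only in AAV-Cre. Over all 42 genes, 21 (50%) had a region within 15 kb in AAV-Cre, beside 41.5% of all protein-coding genes, and 12 (28.6%) in AAV-GFP, beside 27.9%. The share over all 42 was thus close to that of all genes in AAV-GFP, with the classes on either side of it. When Aldoa, Hk1, Pfkp, Pkm, Pfkfb3 and Slc2a1, which many tissues use, were taken out of the isozymes of other tissues, 14 of 19 (73.7%) had a region within 15 kb in AAV-Cre and 8 (42.1%) in AAV-GFP.

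**Figure D1:**
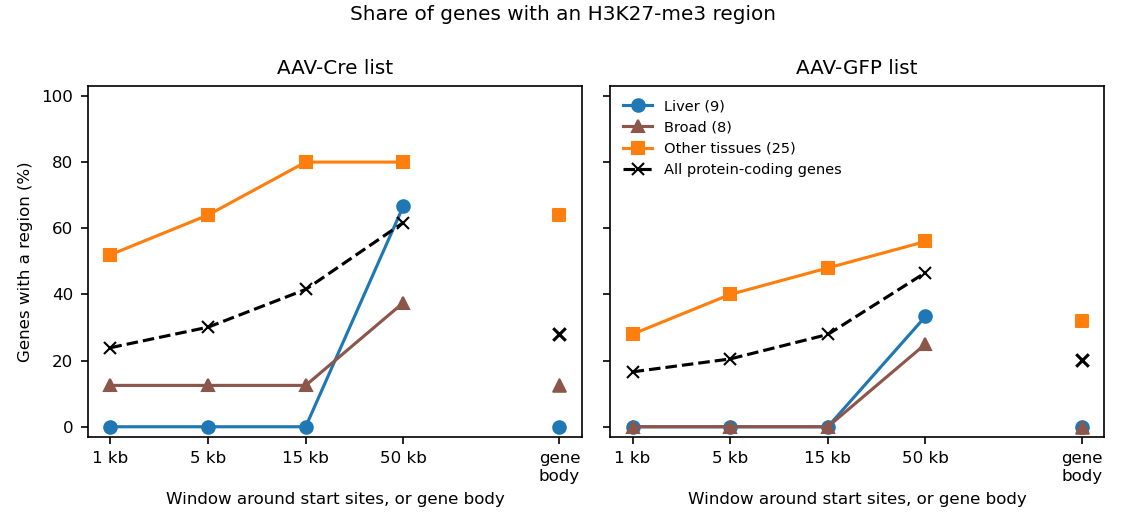
Share of genes (%) with at least 1 H3K27-me3 region within 1, 5, 15 or 50 kb of a start site or over the gene body, for the AAV-Cre list (left) and the AAV-GFP list (right). Lines join the windows of the 9 liver isozymes, the 8 broadly expressed enzymes, the 25 isozymes of other tissues and all 21938 protein-coding genes, and the liver isozymes stay at 0 up to 15 kb in both lists.

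The same order of the classes was seen in a narrow window and over gene bodies. Within 1 kb of a start site, 14 of the 42 genes (33.3%) had a region in AAV-Cre, beside 23.9% of all protein-coding genes, and 7 (16.7%) in AAV-GFP, beside 16.6%. These were 13 (52%) and 7 (28%) of the 25 isozymes of other tissues, 1 broadly expressed enzyme in AAV-Cre, and no liver isozyme. Over the gene body, 17 genes (40.5%) had a region in AAV-Cre, beside 28% of all genes, and 8 (19.0%) in AAV-GFP, beside 20.1%. Here too the marked genes were isozymes of other tissues, 16 and 8 of 25, with Pck2 in AAV-Cre. Within 50 kb, where a region is often nearer to another gene, the counts were 29 (69.0%) in AAV-Cre, beside 61.7% of all genes, and 19 (45.2%) in AAV-GFP, beside 46.6%. At this width the liver isozymes no longer stood apart from all genes in AAV-Cre, with 6 of 9 (66.7%), and 3 of 9 (33.3%) had a region in AAV-GFP. No test was made between the classes, since genes are not replicates and the classes were drawn up with earlier results of these data known.

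**Figure D2:**
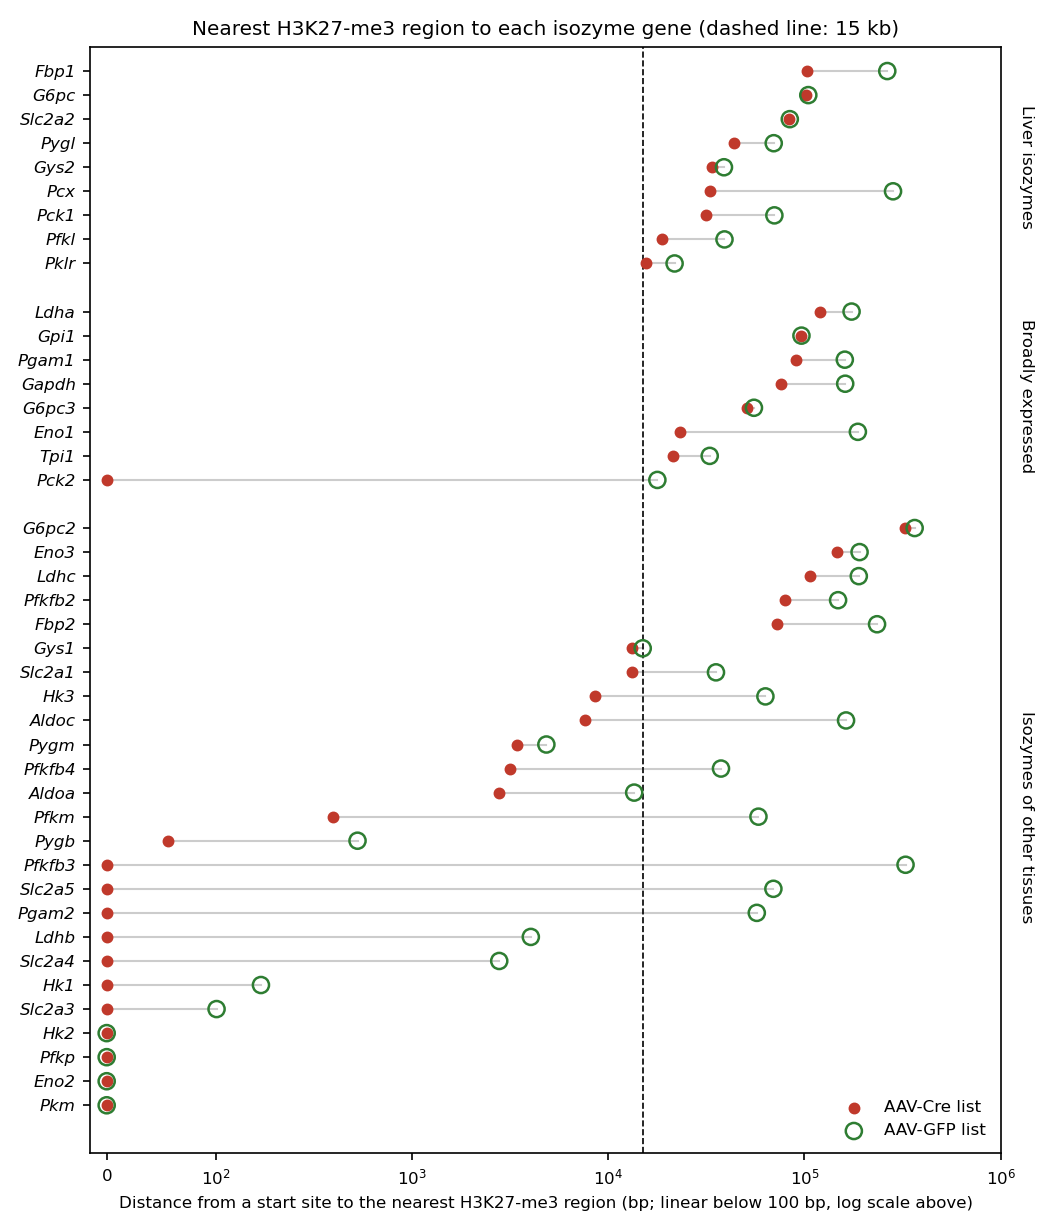
Distance (bp, linear below 100 bp and on a log scale above) from a start site of each of the 42 isozyme genes to the nearest H3K27-me3 region of AAV-Cre (filled) and AAV-GFP (open), with 0 for a region over the start site. All 9 liver isozymes lie to the right of the dashed line at 15 kb in both lists, and the filled points of 20 of the 25 isozymes of other tissues lie to its left.

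Without a window, the isozymes of other tissues were again the nearest to regions, but the order of the other classes turned, with the broadly expressed enzymes farther away than the liver isozymes. The median distance from a start site to the nearest region was 395 bp for the isozymes of other tissues in AAV-Cre and 35405 bp in AAV-GFP. For the liver isozymes it was 33892 bp in AAV-Cre and 70253 bp in AAV-GFP, and for the broadly expressed enzymes 63298.5 and 128520 bp. The median of all protein-coding genes lay between the classes in AAV-Cre, at 26724.5 bp, and at 58275 bp in AAV-GFP, where the isozymes of other tissues were nearer and the liver isozymes farther.

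The liver isozymes are described first. Pklr, the pyruvate kinase of liver and red cells, came closest to the window: its nearest AAV-Cre region (chr3:89152240-89153737, 1498 bp, 4.56-fold over input, q = 7.22e-10) lay 15668 bp downstream of a start site, over coding exons of the neighbouring ion channel gene Hcn3. The nearest AAV-GFP region, in an intron of Hcn3, was 21788 bp away. For Pfkl, the liver phosphofructokinase, the distances were 18796 bp in AAV-Cre, to an intergenic region, and 39127 bp in AAV-GFP. The gluconeogenic genes were farther from any region. Pck1, the cytosolic phosphoenolpyruvate carboxykinase, was 31673 and 70253 bp from the nearest AAV-Cre and AAV-GFP region, and Pcx, pyruvate carboxylase, 32977 and 282671 bp. The AAV-Cre region nearest to Pcx covered the start site of another gene, Syt12. G6pc, the catalytic subunit of glucose-6-phosphatase, was 102194 and 104594 bp from a region, in both lists over coding sequence of Wnk4. Fbp1, fructose-1,6-bisphosphatase, was 102709 bp from a region in AAV-Cre and 264200 bp in AAV-GFP. Fasting raises these gluconeogenic genes in the liver, and none of them had a region within 15 kb with or without Cre. Slc2a2, the glucose transporter of hepatocytes and beta cells, was 83600 and 84190 bp from regions at Eif5a2. Pygl, the liver glycogen phosphorylase, was 43999 and 69723 bp from a region.

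Gys2, the liver glycogen synthase, had its nearest region at another isozyme. The AAV-Cre region 33892 bp from its start site was the region over the start of Ldhb, whose gene ends 17139 bp from Gys2, and from AAV-GFP regions it was at least 38881 bp away. An alternative start site of Gys2 that GENCODE does not tag as basic, at chr6:142423619, lay 7048 bp from an AAV-Cre region and 7771 bp from an AAV-GFP region. With the start sites of all transcripts, Gys2 was therefore the 1 liver isozyme with a region within 15 kb, in both lists.

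**Figure D3:**
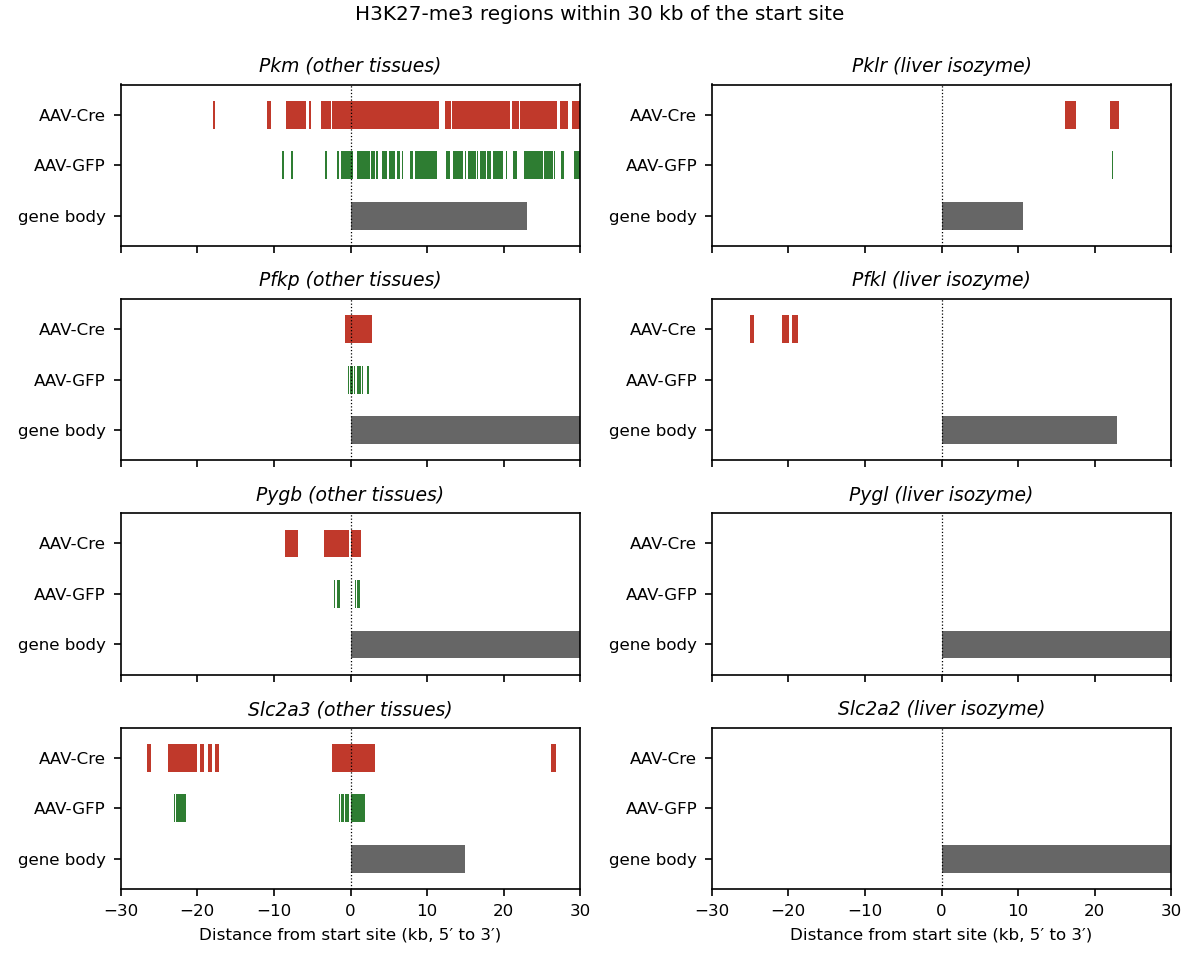
H3K27-me3 regions of AAV-Cre (top row of each panel) and AAV-GFP (middle row) and the gene body (bottom row) within 30 kb of the start site of 4 isozyme pairs, with distance from the start site (kb, in the direction of transcription) on the horizontal axis. The isozymes of other tissues (Pkm, Pfkp, Pygb and Slc2a3, left) have regions of both lists within 1 kb of the start site, and the liver isozymes of the same steps (Pklr, Pfkl, Pygl and Slc2a2, right) have none there. The pairs Fbp2 and Fbp1, G6pc2 and G6pc, and Gys1 and Gys2 are not shown, and neither form has a region within 1 kb in either list. Other forms of the steps shown were less marked. Pygm and Slc2a1 have no region within 1 kb in either list, and Pfkm, Slc2a4 and Slc2a5 have one in AAV-Cre only.

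In pyruvate kinase, the mark was on the gene that hepatocytes do not rely on. Pkm encodes the M1 and M2 forms of muscle, brain and dividing cells, and regions lay along its whole length. A region of 13986 bp in AAV-Cre (chr9:59653940-59667925, 9.44-fold, q = 2.58e-36) covered its start site, and 12 AAV-GFP regions lay inside it and filled 70.8% of it. The AAV-GFP region over the start site was 1672 bp wide (2.91-fold, q = 6.37e-05). Over the gene body, 5 AAV-Cre regions covered 94.0% of Pkm and 23 AAV-GFP regions covered 65.2%. Only 1.84% of all protein-coding genes in AAV-Cre and 1.25% in AAV-GFP were covered to the same share or more. The body of Pklr was covered by neither list.

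**Figure D4:**
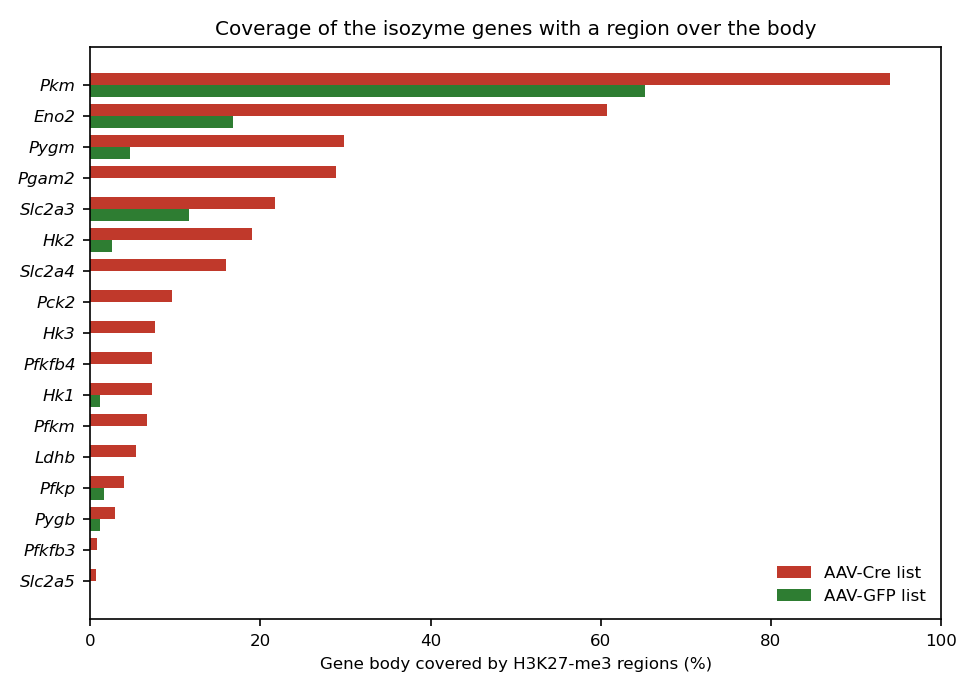
Share of the gene body (%) covered by H3K27-me3 regions of AAV-Cre and AAV-GFP for the 17 isozyme genes with a region over the body. Pkm is covered the most in both lists (94.0% and 65.2%), followed in both by Eno2, and 9 of the genes have AAV-Cre regions only.

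Of the other glycolytic steps, the hexokinases, which trap glucose in the cell, all had a region within 15 kb in AAV-Cre. Hk1, the form of brain and red cells, had 8 AAV-Cre regions in its body, of which 3322 bp at chr10:62338048-62341369 (10.4-fold, q = 1.23e-43) covered an internal start site, with 4 AAV-GFP regions inside. The AAV-GFP region nearest to that start, at 170 bp, had a q-value of 0.776, and the next, at 495 bp, 0.000393. Hk2, the insulin-responsive form of muscle and fat, had a region of 6615 bp over its start (chr6:82769347-82775961, 5.09-fold, q = 1.79e-18). It held 4 AAV-GFP regions, and that over a start site had a width of 283 bp (3.09-fold, q = 0.000576). Both genes were thus marked at a start with either virus, and the AAV-Cre region was the wider. Hk3, the hexokinase of leukocytes, had AAV-Cre regions only, in its body and 8517 bp from a start site (q = 0.0086), and its nearest AAV-GFP region was 63232 bp away.

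Among the phosphofructokinases, the platelet form Pfkp and the muscle form Pfkm were marked, in contrast to Pfkl. Pfkp had an AAV-Cre region of 3436 bp over its start (chr13:6646009-6649444, 6.48-fold, q = 2.5e-19), with 7 AAV-GFP regions that filled 40.9% of it. The AAV-GFP region over the start site was 349 bp wide (2.74-fold, q = 0.00397). In Pfkm the marked site was an internal one: a region of 1204 bp (chr15:98106868-98108071, 4.28-fold, q = 7.98e-09) ended 395 bp before an internal start site, in an intron of the longer transcripts, and 2 further AAV-Cre regions lay upstream within the gene. No AAV-GFP region lay nearer than 58277 bp.

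Eno2, the neuronal enolase, was after Pkm the most covered isozyme. A region of 3436 bp lay over its start (chr6:124767505-124770940, 9.09-fold, q = 4.59e-34), and an AAV-GFP region of 1611 bp (2.91-fold, q = 0.000112) covered the same site. Its body was 60.8% covered in AAV-Cre and 16.7% in AAV-GFP. Its neighbour Lrrc23 overlaps this region and has a region of its own over its start, so the mark spans both genes. Tpi1, the triosephosphate isomerase of every cell, lies 40912 bp from Eno2, and its nearest AAV-Cre region was 21333 bp from its start. The muscle enolase Eno3 was not marked, at 147080 bp, nor was the broad form Eno1, at 23224 bp.

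The muscle phosphoglycerate mutase Pgam2 had an AAV-Cre region of 901 bp over its start (chr11:5803129-5804029, 3.34-fold, q = 8.44e-05) that covered 28.9% of its short body, and its nearest AAV-GFP region lay 57159 bp away. The broad mutase Pgam1 was 90265 and 160519 bp from a region. The lactate dehydrogenases were split likewise, with Ldhb, the heart form, marked over its start by 1764 bp in AAV-Cre (chr6:142507001-142508764, 6.74-fold, q = 3.42e-20). No AAV-GFP region lay in that stretch. The nearest was 4033 bp away (q = 0.0754), so that Ldhb counted as marked in AAV-GFP within 15 kb but not within 1 kb, and not at a q-value of 0.05. Ldha, the form that predominates in liver and muscle, and its neighbour Ldhc, the testis form, lay 120350 and 106660 bp from an AAV-Cre region.

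The aldolases of other tissues were marked only by regions at their neighbours. Aldoc, the brain form, was 7625 bp from an AAV-Cre region of 373 bp in coding sequence of Spag5 (q = 0.0573). Aldoa, the muscle form, is annotated under 2 identifiers with different start sites. From the more upstream it was 2787 bp from an AAV-Cre region in an intron of Fam57b (q = 0.219) and 13561 bp from an AAV-GFP region, and the region with the lowest q-value in its window (1.99e-28) covered the start of Fam57b.

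Of the 8 gluconeogenic genes, Pck2 was the only gene (12.5%) with a region within 15 kb in AAV-Cre, beside 41.5% of all protein-coding genes. None had a region within 15 kb in AAV-GFP, beside 27.9% of all genes. Fbp1, Pck1, Pcx and G6pc are also counted among the liver isozymes. The Pck2 region was 2122 bp wide (chr14:55539200-55541321, 3.30-fold, q = 8.44e-05) and covered the start site and 9.62% of the body. Its nearest AAV-GFP region lay 17801 bp away, in the neighbouring gene Nrl. G6pc2, the islet form of glucose-6-phosphatase, was the member farthest from any region, at 324891 bp (AAV-Cre) and 364279 bp (AAV-GFP). The muscle bisphosphatase Fbp2 lies 6330 bp from Fbp1 and had the same nearest region in each list, 72849 and 234340 bp away. Of the other broadly expressed enzymes, Tpi1 and Eno1 (above) were nearer to an AAV-Cre region than the median of all genes, and Ldha, Pgam1 and the following were farther, with G6pc3, a ubiquitous glucose-6-phosphatase, at 51106 bp, Gapdh at 75491 bp and Gpi1, the isomerase of the second step, at 95752 bp. For all of these genes, absence of a region says only that no region passed the authors' threshold.

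Of the glycogen enzymes, the brain and muscle phosphorylases were marked in both lists. In Pygb, the brain form, a region of 1308 bp began 56 bp downstream of the start site (chr2:150786791-150788098, 7.34-fold, q = 1.31e-26) and a second, of 3258 bp (q = 7.22e-10), ended 199 bp upstream of it. The AAV-GFP regions were narrower, and the nearest, at 528 bp, had a q-value of 0.0288. In Pygm, the muscle form, the mark lay inside the gene, with a region of 2711 bp at 3423 bp from a start site (6.13-fold, q = 8.58e-17). A stronger one of 3995 bp (13.2-fold, q = 5.68e-69) lay over its end and over the start of Rasgrp2, and the body was covered to 29.8% in AAV-Cre and 4.69% in AAV-GFP. Gys1, the muscle glycogen synthase, had regions at the neighbouring gonadotropin gene Lhb, 13290 bp away in AAV-Cre and 14991 bp in AAV-GFP, just inside the window.

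Among the glucose transporters, Slc2a3, the neuronal GLUT3, was marked with either virus. Its AAV-Cre region was 5636 bp wide (chr6:122739507-122745142, 7.30-fold, q = 9.24e-24) over the start site, with 4 AAV-GFP regions that filled 50.3% of it. The largest of these was 1732 bp wide, 101 bp from the start (4.37-fold, q = 1.49e-07). Slc2a4, the insulin-regulated GLUT4 of muscle and fat, had a region of 817 bp over its start in AAV-Cre (chr11:69947679-69948495, 3.43-fold, q = 2.27e-05), and AAV-GFP regions from 2784 bp. It lies between stretches with lower q-values, among them a region of 6726 bp over the start of Ybx2 (10.4-fold, q = 2.01e-72), 6941 bp away. Slc2a5, the fructose transporter of intestine, was covered at its start by 469 bp in AAV-Cre only (chr4:150118980-150119448, 2.51-fold, q = 0.023), and the ubiquitous GLUT1 gene Slc2a1 was 13184 bp from an intergenic AAV-Cre region with the same q-value.

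The bifunctional enzymes set the level of fructose 2,6-bisphosphate, the main activator of phosphofructokinase. Pfkfb3, the form induced in growing and hypoxic cells, had a region of 1115 bp over a start site in AAV-Cre (chr2:11553407-11554521, 4.30-fold, q = 1.73e-08), and its nearest AAV-GFP region was 327345 bp away. Pfkfb4, best known from testis and tumour cells, had AAV-Cre regions 3170 bp from its start (q = 0.0693) and 3 in an intron. Pfkfb2, the heart form, was not marked, at 79948 bp.

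Regions at isozymes differed between the lists as regions of the whole lists did. Counting those within 15 kb of a start site or over a body, AAV-Cre had 73 regions with a median width of 971 bp and AAV-GFP 74 with a median of 329 bp. Of the AAV-GFP regions 73 (98.6%) overlapped an AAV-Cre region, whereas 25 of the AAV-Cre regions (34.2%) overlapped an AAV-GFP region, beside 86.4% and 24.2% over the whole lists. A q-value of 0.05 or lower was reached by 60 of the AAV-Cre (82.2%) and 48 of the AAV-GFP regions (64.9%), beside 88.6% and 46.8%. Pkm alone held 27 of the 74 AAV-GFP regions and 9 of the 73 AAV-Cre regions. Without Pkm, 18 of 64 AAV-Cre regions (28.1%) overlapped an AAV-GFP region, and 26 of 47 AAV-GFP regions (55.3%) reached that q-value.

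The isozymes with a region in AAV-Cre only were Hk3, Pfkm, Aldoc, Pgam2, Pck2, Pfkfb3, Pfkfb4, Slc2a1 and Slc2a5 within 15 kb, which is 9 of 42 (21.4%), beside 14.8% of all protein-coding genes. No isozyme had a region in AAV-GFP only, beside 1.22% of all genes. Within 1 kb, 7 genes (16.7%) were marked in AAV-Cre only, beside 7.62% of all genes, namely Pfkm, Pgam2, Pck2, Ldhb, Pfkfb3, Slc2a4 and Slc2a5, and over the body 9 (21.4%), beside 8.64%. The counts within 15 kb lay nearer to those of all genes under other settings, which were not applied to the 1 kb and body shares of all genes. When only the 34586 regions with the lowest p-values were kept in each list, 4 isozymes (Pfkm, Pgam2, Pck2 and Pfkfb3) had a region within 15 kb in AAV-Cre only, while 10.0% of all genes did. With regions of at least 300 bp, the smallest width in the AAV-Cre list, it was 10 isozymes (23.8%), beside 21.6% of all genes, and at a q-value of 0.01 or lower 8 (19.0%), beside 19.3%. The excess of isozymes marked in AAV-Cre only within 15 kb was thus not seen in these settings or was small.

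The promoters of the isozymes were compared by their sequence, since Polycomb binds CG-rich DNA. Of the 42 genes, 39 were found in the RefSeq promoter table (GRCm38.p6), which holds 250 bases before and 50 after each start, and for each gene the promoter with the most CG dinucleotides, which read the same on both strands, was taken. Gys2, Slc2a3 and Slc2a4 have no entry. The following are those of 3 pairs of isozymes of the same step, printed 5′ to 3′ with each CG in capitals. They are shown because the members of a pair differ in the mark while their CG counts do not order them alike. Pkm (chr9:59656326-59656625, + strand) had 27 CG and Pklr (chr3:89136373-89136672, + strand) had 8, Pfkp (chr13:6648722-6649021, - strand) had 21 and Pfkl (chr10:78009758-78010057, - strand) had 20, and Pgam2 (chr11:5803747-5804046, - strand) had 1 and Pgam1 (chr19:41911621-41911920, + strand) had 30.
Pkm: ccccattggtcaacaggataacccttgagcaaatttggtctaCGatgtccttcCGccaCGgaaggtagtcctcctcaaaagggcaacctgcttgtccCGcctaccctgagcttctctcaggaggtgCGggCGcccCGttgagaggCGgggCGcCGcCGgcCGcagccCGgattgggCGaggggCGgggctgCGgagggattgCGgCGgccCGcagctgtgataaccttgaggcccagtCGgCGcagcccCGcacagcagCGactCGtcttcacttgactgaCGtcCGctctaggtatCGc
Pklr: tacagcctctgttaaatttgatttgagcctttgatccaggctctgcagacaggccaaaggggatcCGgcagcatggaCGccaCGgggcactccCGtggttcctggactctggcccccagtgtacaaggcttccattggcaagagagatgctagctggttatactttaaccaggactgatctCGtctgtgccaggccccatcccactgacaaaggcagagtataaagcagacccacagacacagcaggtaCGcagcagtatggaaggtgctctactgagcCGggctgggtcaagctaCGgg
Pfkp: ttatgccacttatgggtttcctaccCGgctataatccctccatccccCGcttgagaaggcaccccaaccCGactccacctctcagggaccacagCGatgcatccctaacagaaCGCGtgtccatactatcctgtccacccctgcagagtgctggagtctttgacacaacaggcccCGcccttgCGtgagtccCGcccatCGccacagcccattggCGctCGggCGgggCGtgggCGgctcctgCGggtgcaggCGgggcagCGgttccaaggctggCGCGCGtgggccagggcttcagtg
Pfkl: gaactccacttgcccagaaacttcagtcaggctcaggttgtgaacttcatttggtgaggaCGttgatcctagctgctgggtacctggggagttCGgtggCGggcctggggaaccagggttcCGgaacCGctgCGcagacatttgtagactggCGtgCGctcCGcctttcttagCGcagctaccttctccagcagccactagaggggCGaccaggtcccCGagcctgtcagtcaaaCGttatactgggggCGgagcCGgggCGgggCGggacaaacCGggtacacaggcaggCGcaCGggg
Pgam2: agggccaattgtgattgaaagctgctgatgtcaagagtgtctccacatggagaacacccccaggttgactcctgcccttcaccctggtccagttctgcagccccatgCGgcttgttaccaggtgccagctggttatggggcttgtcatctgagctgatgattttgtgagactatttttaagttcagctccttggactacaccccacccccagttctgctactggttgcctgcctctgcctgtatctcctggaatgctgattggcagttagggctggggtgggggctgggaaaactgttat
Pgam1: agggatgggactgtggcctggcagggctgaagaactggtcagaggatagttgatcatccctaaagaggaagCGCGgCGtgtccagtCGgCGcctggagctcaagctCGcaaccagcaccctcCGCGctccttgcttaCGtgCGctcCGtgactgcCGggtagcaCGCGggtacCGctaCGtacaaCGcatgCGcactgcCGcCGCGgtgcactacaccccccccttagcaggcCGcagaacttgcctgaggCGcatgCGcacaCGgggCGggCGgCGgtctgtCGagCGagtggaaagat
In the first pair the CG-rich promoter was marked and the CG-poor was not. In the second, promoters with nearly the same CG count differed in the mark, and in the third the marked promoter, that of Pgam2, had the lowest CG count of all 39.

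Over the classes, the median CG count was 7 for 8 liver isozymes, 15 for 23 isozymes of other tissues and 20.5 for the 8 broadly expressed enzymes, beside 15 for 16522 protein-coding genes in the table. Among the isozymes of other tissues with 15 CG or more, a region covered a promoter in AAV-Cre in 9 of 12, and among those with fewer in 1 of 11, Pgam2. In AAV-GFP the counts were 5 of 12 and 0 of 11. Of the 5, Hk1 counts through a region of q = 0.776 that reaches the promoter interval only at its edge, chr10:62340372. The liver isozymes Pfkl, Pcx and Pygl, with 20, 20 and 22 CG, were not covered, nor were the 6 broadly expressed enzymes with 15 CG or more. Of all genes at or above 15 CG, 21.2% had an AAV-Cre region over a promoter and 15.7% an AAV-GFP region, and of those below, 17.4% and 7.52%.

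**Figure D5:**
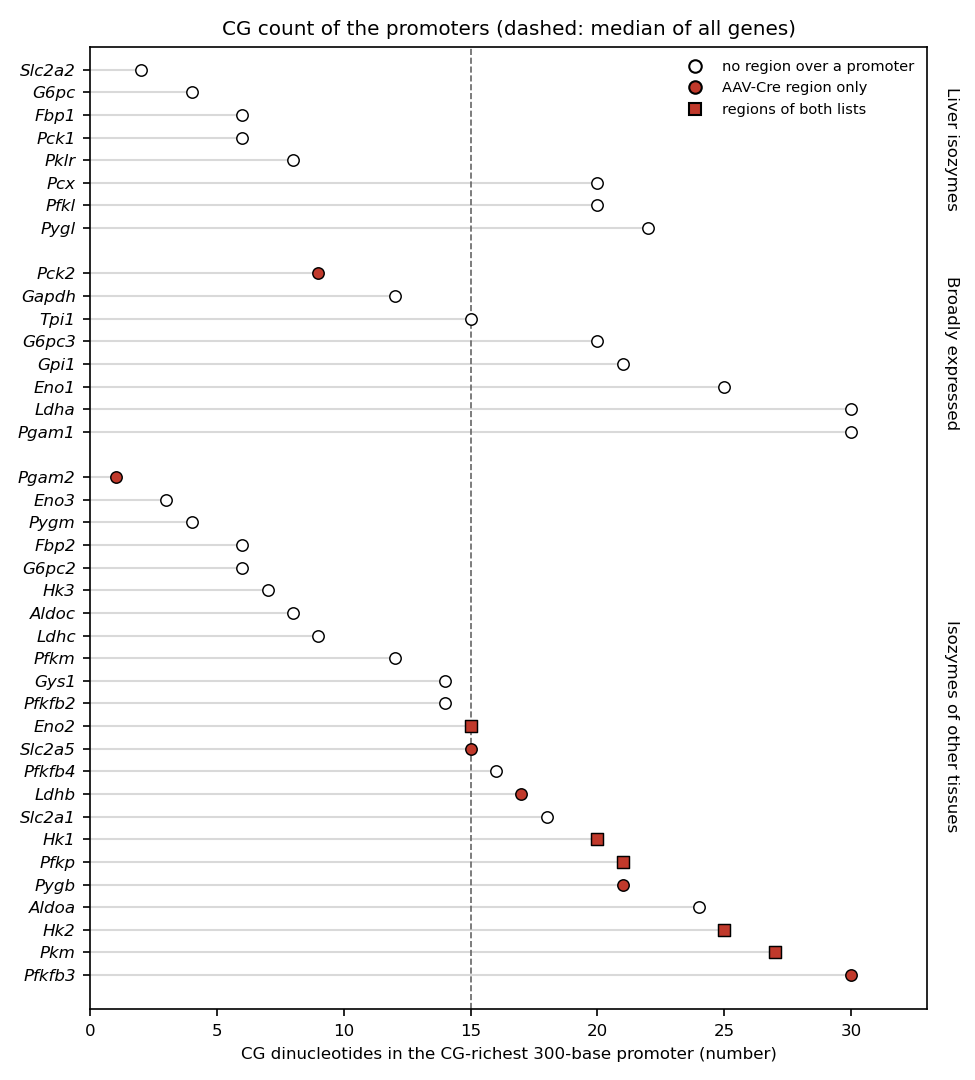
Number of CG dinucleotides in the CG-richest 300-base promoter of the 39 isozyme genes in the RefSeq table, by class, with the median of 16522 protein-coding genes (15) as a dashed line. Filled circles have an AAV-Cre region over a promoter, and filled squares have regions of both lists. For Hk1 the AAV-GFP region reaches only the edge of the promoter. The marked genes with few CG are Pgam2 (1) and Pck2 (9).

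The other genes of these pathways, 45 enzymes, regulators and transporters outside the isozyme set, were counted in the same way. Within 15 kb, 12 (26.7%) had a region in AAV-Cre, beside 41.5% of all protein-coding genes, and 6 (13.3%) in AAV-GFP, beside 27.9%. A region in AAV-Cre only was held by 6 (13.3%), close to the 14.8% of all genes. The difference from all genes was not tested. Within 1 kb, 7 (15.6%) had a region in AAV-Cre, beside 23.9% of all genes, and 4 (8.89%) in AAV-GFP, beside 16.6%. Those in AAV-Cre were the hexokinase-like Hkdc1, the phosphoglucomutase family gene Pgm2, the glycogen-targeting phosphatase subunits Ppp1r3d and Ppp1r3g, the transporters Slc2a10 and Slc2a12 and the lactate exporter Slc16a3. Of these, Ppp1r3d, Slc2a10, Slc2a12 and Slc16a3 were also marked in AAV-GFP. Pfkfb1, the liver bifunctional enzyme, lay 452707 bp from the nearest AAV-Cre region.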

How the data were processed

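The ChIP-seq data covered 2 H3K27-me3 and 2 input libraries per virus from mouse liver, with groups taken from the sample labels. Per the authors' methods, reads were mapped to mm10, filtered and used for peak calling with MACS against a pooled input, and peaks that overlapped across replicates were kept. The submitters' processing notes name BWA 0.7.13, SAMtools 1.2 and Picard 1.126. Narrow-peak calling can cut a broad domain into pieces.

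Every region of the deposited lists comes with its position, a fold enrichment over input (a ratio) and a p-value and q-value on the −log10 scale, all made by the authors. The deposited display score was not used. Folds were not compared between the lists. No read counts are in the lists, so the depth per sample and the precision it gives are unknown.

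Genes were the protein-coding genes of GENCODE M21 on GRCm38 (mm10), without the mitochondrial genome. A gene was counted when a region overlapped a window of 15 kb around a start site of a basic transcript by at least 1 bp, with 1, 5 and 50 kb and the body of basic transcripts as other windows. Genes were counted beside all 21938 protein-coding genes, with no test, since there is 1 list per virus. Promoters were from RefSeq. Position, width, fold and q-value of a region were given for members with a region within 1 kb of a start site, and distances for all other members. The values of regions given for Pklr, Pygm, Hk3, Aldoa, Aldoc, Pfkfb4 and Slc2a1 go beyond this rule and were chosen after they were seen. The members, the classes of isozymes, the list of 45 other pathway genes and the hepatocyte genes were chosen with earlier results of these data known. The search for the nearest region was tested on simulated data. Python 3.11.15, pandas 2.3.3, numpy 2.4.6, pysam 0.24.0 and matplotlib 3.10.9 were used.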

Additional observations from a re-analysis of the deposited data

How the results depend on the processing

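The 6 counts within 15 kb were recomputed under 12 alternatives (the narrower class of other-tissue isozymes bears only on the counts of that class), of which restricting Aldoa to its first identifier and taking the body over all transcripts were chosen after seeing the data. All counts stayed within 1.5 times the value reported except these. With equally long lists, 4 isozymes had a region in AAV-Cre only, instead of 9. With a window of 1 kb, 7 isozymes had a region in AAV-GFP, all of them isozymes of other tissues, instead of 12, and 13 isozymes of other tissues had a region in AAV-Cre, instead of 20. With a window of 50 kb, 19 isozymes had a region in AAV-GFP, and 6 liver isozymes had a region in AAV-Cre, instead of 0. With the start sites of all transcripts, 1 liver isozyme, Gys2, had a region in AAV-Cre. The direction of each of these changes is fixed by the setting, as fewer regions, a narrower or wider window or more start sites. Whether list size accounts for the difference between the viruses was not tested.

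At a q-value of 0.05 or lower, 20 of the 42 isozymes had a region in AAV-Cre, without Aldoc, beside 40.4% of all protein-coding genes. In AAV-GFP it was 10 of 42, without Ldhb and Gys1, beside 21.5% of all genes. A region in AAV-Cre only was held by 10 of 42 at this q-value, beside 19.3% of all genes. The liver isozymes were at 0 in AAV-Cre under every alternative that recounted them except the window of 50 kb and the start sites of all transcripts. No paired analysis was possible because each list pools both mice of a group, and leaving out each mouse could not be run for the same reason. The counts therefore have no replicate error, and how far they depend on 1 mouse is not known.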
